A study of Drosophila melanogaster with 6 samples.

Results

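The genes of the Jak/Stat pathway described here are the 3 ligands *upd1*, *upd2* and *upd3*, the receptor *dome* and its short relative *et*, the kinase *hop*, the transcription factor *Stat92E*, and the 3 regulators *Socs36E*, *Socs16D* and *Ptp61F*. They were chosen by name, from their place in the pathway, by a rule that uses no measured value but was written with earlier results of these data known. The symbols of the deposited table, with *os* standing for *upd1* and CG14225 for *et*, gave 13 probe sets for the 10 genes, out of 18769 probe sets tested. A probe set is the group of short probes that measures 1 transcript or group of transcripts on the array. RNA from whole adult midguts of females aged 7 days was hybridized to Affymetrix Drosophila Genome 2.0 arrays, 3 of wild type flies and 3 of flies mutant for *Apc1*, with many midguts pooled in each sample. *Apc1* encodes a negative regulator of Wingless signaling, and the arrays compare midgut transcripts with and without it. *Apc1*Q8 is described as a null allele and is mutant in the whole animal, so no cell type of the midgut was spared. The controls are w1118 in the series description and Canton S in the study's methods, so their strain could not be settled, and a difference of genetic background cannot be told apart from the genotype. No treatment beyond ageing is named for either group, and both were kept at the same temperature.

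In the Jak/Stat pathway, secreted Unpaired cytokines bind the receptor Domeless, the associated kinase Hopscotch phosphorylates receptor and Stat92E, and Stat92E enters the nucleus to activate its targets. One of these targets, *Socs36E*, encodes an inhibitor of the same signal and is widely used to read pathway activity. In the fly midgut, enterocytes under stress or infection release Unpaired ligands, and the pathway promotes division of intestinal stem cells and differentiation of their daughters. Renewal of the epithelium after damage depends on this signal.

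All values below are log2 signals, and a difference of 1 is a 2-fold change. Each difference is the mutant mean minus the wild type mean with its standard error, and a probe set was called at an adjusted p under 0.05 by limma with Benjamini-Hochberg adjustment over all 18769 probe sets. Of the 13 Jak/Stat probe sets, 4 were called higher in *Apc1* mutants, against 6.82% of all probe sets, and 0 were called lower, against 4.22%. At an unadjusted p under 0.05, 5 were higher, against 14.6% of all probe sets, and 0 were lower. The 4 called probe sets measure *upd3*, *dome*, *Socs36E* and *Ptp61F*, which are a ligand, the receptor and a pair of inhibitors. Those of *upd3*, *dome* and *Socs36E* changed by more than 2-fold, as did 2.63% of all probe sets in the same direction. In 6 of the 13, every mutant array lay above every wild type array, which held for 17.2% of all probe sets. The difference was above 0 in 11 of the 13, against 47.6% of all, and the median difference was 0.31, against -0.02 over all probe sets. In RNA from whole midguts, a change in the number of cells of a type and a change of RNA per cell cannot be told apart.

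**Figure D1:**
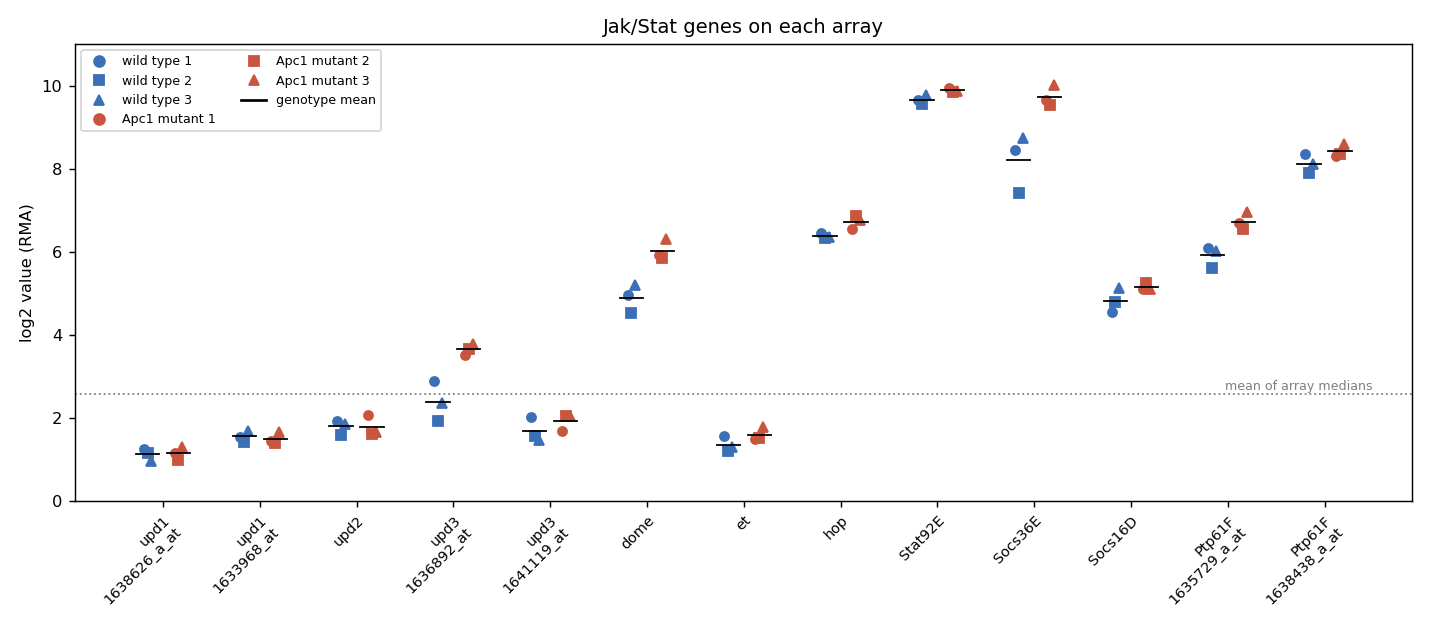
Log2 RMA signal (vertical axis) of the 13 Jak/Stat probe sets (horizontal axis) on each of the 6 arrays, with wild type in blue, *Apc1* mutants in red, a bar at each genotype's mean and a dotted line at the mean of the array medians. The red points lie wholly above the blue ones for *dome*, *hop*, *Stat92E*, *Socs36E*, 1 probe set of *upd3* and 1 of *Ptp61F*, and levels are to be compared within a probe set only.

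Among the ligands, only *upd3* was called, and only by 1 of its probe sets. *upd3* encodes the ligand best known for its induction in the midgut by infection and damage. The probe set 1636892_at of *upd3* read 2.88, 1.92 and 2.35 in wild type replicates 1 to 3 and 3.51, 3.65 and 3.78 in *Apc1* mutant replicates 1 to 3. The mutant arrays all lay above the wild type arrays and were close together (SD 0.13, n = 3), while the wild type arrays were spread more widely (SD 0.48, n = 3). The level rose by 1.26 ± 0.23 (SE), which is 2.4-fold with a 95% confidence interval from 1.65 to 3.49, and the adjusted p was 0.0138. Without mutant replicate 3 the difference was 1.20 and the adjusted p 0.0645. The other *upd3* probe set, 1641119_at, read 2.02, 1.55 and 1.46 in wild type and 1.68, 2.03 and 2.03 in mutants. Here the genotypes overlapped, and the difference was 0.23 ± 0.18 (SE) with an adjusted p of 0.481. When both *upd3* probe sets were averaged, the difference was 0.75 and the adjusted p 0.0513.

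The other ligand genes gave low signals that did not pass the test. *upd2* encodes a ligand that also carries nutrient signals from the fat body to the brain. Its probe set 1623718_at read 1.93, 1.58 and 1.86 in wild type and 2.06, 1.6 and 1.66 in mutants. The ranges overlapped almost completely, with a difference of -0.02 ± 0.16 (SE), an interval from -0.40 to 0.37 and an adjusted p of 0.965, so a rise of the size seen for *upd3* lies outside the interval for this probe set. *upd1*, the first ligand described, is named by the symbols of 2 probe sets. For 1633968_at the values were 1.53, 1.42 and 1.69 in wild type and 1.44, 1.39 and 1.65 in mutants. The difference was -0.05 ± 0.13 (SE), the interval ran from -0.35 to 0.24, and the adjusted p was 0.837. The other, 1638626_a_at, carries the symbols of both *os* and CG17377, but all 3 of its transcript accessions belong to CG17377, a gene on arm 2L, and it may not measure *upd1*. It read 1.25, 1.14 and 0.96 in wild type and 1.15, 0.98 and 1.30 in mutants, a difference of 0.02 ± 0.13 (SE) with an adjusted p of 0.938. Signals of this size were at the dim end of the arrays. On its own array, 1633968_at was brighter than 17.2% to 30.5% of the probe sets and the *upd2* probe set brighter than 24.3% to 42.1%, while the called *upd3* probe set was brighter than 37.2% to 61.0%. No detection call was used, so for the dim probe sets a level cannot be told from background.

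The 3 ligand genes lie close together on the X chromosome in the RefSeq annotation, with 3 genes between *upd2* and *upd3* and 1 between *upd3* and *upd1*. Of these intervening genes, only CG15059 was measured, by 3 probe sets, and 1 of them was called. That probe set, 1638769_a_at, was lower in mutants (difference -0.49, adjusted p = 0.0263 by limma). It read 1.99, 2.07 and 2.05 in wild type and 1.49, 1.51 and 1.64 in mutants. These values lay at the dim end of the arrays, where a level cannot be told from background, so the size of the fall is uncertain. The other probe sets of CG15059 were not called.

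The receptor gene *dome* rose in the mutants. Domeless is the only signaling receptor for Unpaired ligands in the fly. Its probe set 1632381_at read 4.95, 4.53 and 5.20 in wild type and 5.92, 5.84 and 6.31 in mutants. The lowest mutant array stood above the highest wild type array, and wild type replicate 2 was the lowest of all. The mean went from 4.89 ± 0.34 (SD, n = 3) to 6.02 ± 0.25 (SD, n = 3), a rise of 1.13 ± 0.20 (SE), or 2.19-fold with an interval from 1.57 to 3.04 (adjusted p = 0.0132). Without mutant replicate 3 the difference was 0.99 and the adjusted p 0.0544. *et*, which lies next to *dome* on the X chromosome with 0 genes between them, encodes a short receptor that pairs with Domeless and dampens the signal. Its probe set 1636415_at read 1.56, 1.19 and 1.30 in wild type and 1.49, 1.51 and 1.77 in mutants. The genotypes overlapped at wild type replicate 1, and the difference of 0.24 ± 0.14 (SE) had an interval from -0.10 to 0.57 and an adjusted p of 0.358. On its own array the *et* probe set was brighter than only 7.08% to 33.9% of the probe sets, where a level cannot be told from background.

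The genes of the intracellular relay did not pass the test, although both kept the genotypes apart. *hop* encodes the only Janus kinase of the fly. Its probe set 1639072_at read 6.45, 6.33 and 6.34 in wild type and 6.54, 6.86 and 6.76 in mutants. The gap between the nearest arrays of the genotypes was narrow, and the difference was 0.35 ± 0.12 (SE), or 1.27-fold, with an unadjusted p of 0.024 and an adjusted p of 0.128. Over all the alternatives the adjusted p for *hop* ran from 0.0599 to 0.329. *Stat92E* encodes the only Stat protein of the fly. Its probe set 1635827_s_at read 9.65, 9.55 and 9.77 in wild type and 9.93, 9.84 and 9.87 in mutants. All mutant arrays were above the wild type arrays, by a mean of 0.23 ± 0.11 (SE), with an interval from -0.03 to 0.49 and an adjusted p of 0.256. For *Stat92E*, a 2-fold change of the transcript lies outside this interval, as it does for *hop*, whose interval ran from 0.06 to 0.64.

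**Figure D2:**
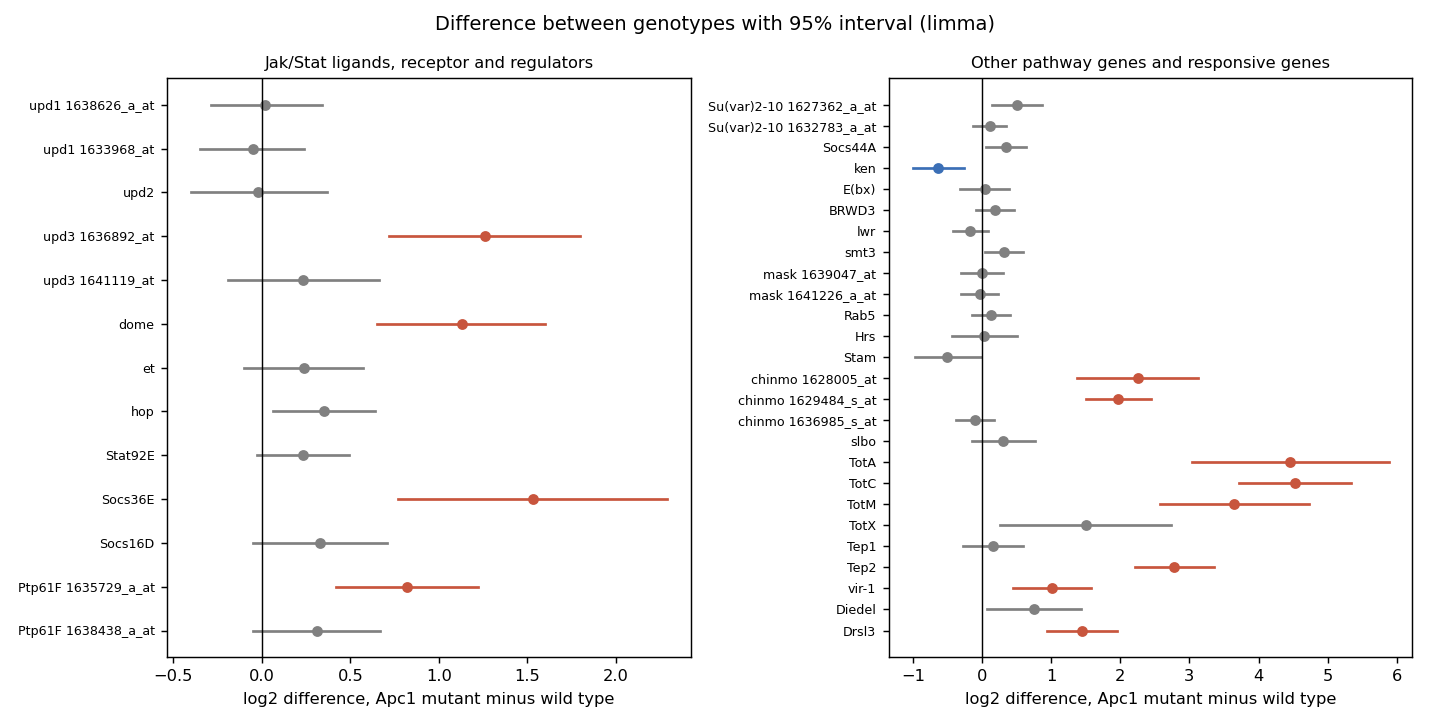
Difference between genotypes (horizontal axes, mutant minus wild type, log2) with its 95% confidence interval from limma, for the 13 Jak/Stat probe sets (left) and for other pathway and responsive genes (right), in red where called higher, blue where called lower and grey where not called. The 4 called Jak/Stat differences run from 0.82 for *Ptp61F* to 1.53 for *Socs36E*, the intervals of *upd1* and *upd2* lie around 0, and the axes of the panels differ in scale.

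The largest difference among the 13 probe sets was that of *Socs36E*, the feedback inhibitor and target of the pathway. Its probe set 1637703_a_at read 8.45, 7.42 and 8.74 in wild type and 9.66, 9.52 and 10.01 in mutants. Every mutant array lay above the wild type arrays, and wild type replicate 2 was far below the other wild type arrays. The mean went from 8.20 ± 0.69 (SD, n = 3) to 9.73 ± 0.25 (SD, n = 3), a rise of 1.53 ± 0.33 (SE), or 2.89-fold with an interval from 1.70 to 4.90 (adjusted p = 0.0256). Without wild type replicate 2 the difference was smaller, 1.14, and the adjusted p was 0.0132. The call was lost without mutant replicate 1 (1.56, adjusted p = 0.0781), without mutant replicate 2 (1.63, adjusted p = 0.0543) and without mutant replicate 3 (1.39, adjusted p = 0.102).

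*Socs16D* encodes another protein of the Socs family. Its probe set 1636122_at read 4.54, 4.79 and 5.12 in wild type and 5.10, 5.25 and 5.10 in mutants. Wild type replicate 3 lay within the mutant range, and the difference was 0.33 ± 0.16 (SE), with an interval from -0.05 to 0.71 and an adjusted p of 0.258. A further probe set, 1623047_at, carries no symbol in the deposited table but a transcript accession of *Socs16D*, and is not among the 13. It read 2.83, 2.39 and 2.94 in wild type and 3.64, 3.18 and 3.08 in mutants, so that the genotypes did not overlap, with a difference of 0.58 ± 0.20 (SE) and an adjusted p of 0.123.

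*Ptp61F* encodes a tyrosine phosphatase that acts on Hopscotch and Stat92E and exists in splice forms of different location in the cell. Its probe set 1635729_a_at read 6.08, 5.61 and 6.02 in wild type and 6.68, 6.55 and 6.95 in mutants. The genotypes did not overlap, and wild type replicate 2 was again the lowest array. The mean went from 5.91 ± 0.26 (SD, n = 3) to 6.72 ± 0.20 (SD, n = 3), a rise of 0.82 ± 0.17 (SE), or 1.76-fold with an interval from 1.34 to 2.33 (adjusted p = 0.0231). The call was lost without mutant replicate 1 (0.84, adjusted p = 0.0718), without mutant replicate 3 (0.71, adjusted p = 0.0873) and when the *Ptp61F* probe sets were averaged (0.56, adjusted p = 0.0599). The other probe set, 1638438_a_at, read 8.35, 7.89 and 8.10 in wild type and 8.31, 8.36 and 8.59 in mutants. Wild type replicate 1 overlapped the mutant arrays, and the difference was 0.31 ± 0.15 (SE), with an interval from -0.05 to 0.67 and an adjusted p of 0.261.

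For *upd3* and *Ptp61F*, 1 probe set was called and the other was not. As a description, with no test, the signal of the called probe set was set against that of the other on each array, where only the change of this gap between genotypes is to be read. The called *upd3* probe set exceeded the other by 0.85, 0.37 and 0.89 on the wild type arrays and by 1.83, 1.62 and 1.75 on the mutant arrays. The genotypes did not overlap, and the mean change of this gap was 1.03. The called *Ptp61F* probe set stood at -2.26, -2.28 and -2.07 relative to the other in wild type and at -1.63, -1.81 and -1.65 in mutants, a mean change of 0.51 without overlap. The second *upd3* probe set lay at the dim end of the arrays, at 1.46 to 2.03, so its gap largely repeats the change of the called one. The 2 probe sets of *Ptp61F* list the same 4 transcript accessions, so the files do not tie either to a splice form. For *Socs16D*, the gap between its probe sets changed by 0.25 with overlapping genotypes.

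**Figure D3:**
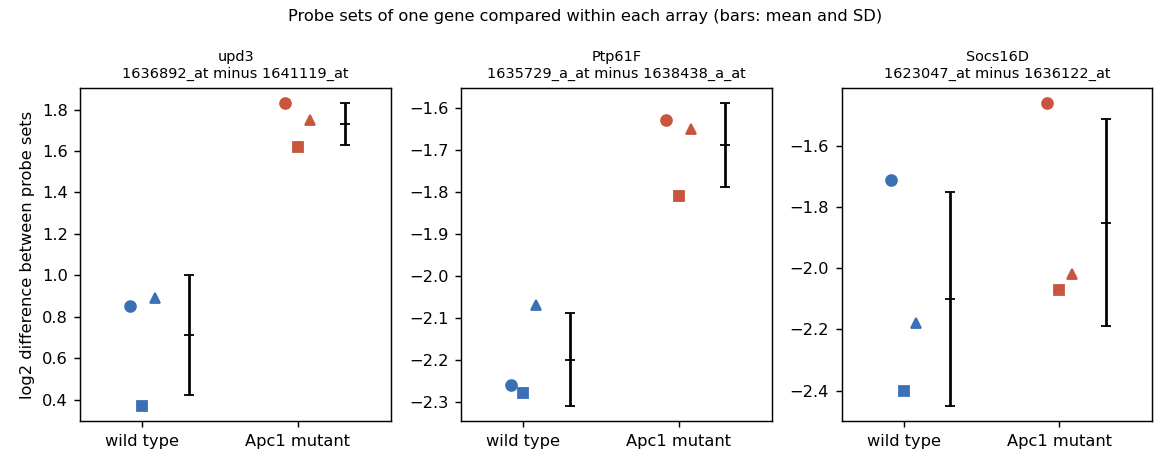
Difference between the probe sets of the same gene on each array (vertical axes, log2, with a scale of its own in each panel) for *upd3*, *Ptp61F* and *Socs16D*, with wild type in blue and *Apc1* mutants in red (replicate 1 circle, 2 square, 3 triangle) and bars at the mean and SD of 3 arrays. The genotypes are apart for *upd3* (0.37 to 0.89 against 1.62 to 1.83) and for *Ptp61F*, and overlap for *Socs16D*.

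Single arrays bore on these results. Wild type replicate 2 was the lowest wild type array in 10 of the 13 probe sets and the highest in 0, whereas over all probe sets it was the lowest in 35.4%. Mutant replicate 3 was the highest mutant array in 9 of the 13 and the lowest in 0, against 34.2% of all probe sets where it was the highest. Without wild type replicate 2, 4 of the 13 were still called higher, against 5.40% of all probe sets, and the differences were 1.03 for *upd3*, 0.94 for *dome*, 1.14 for *Socs36E* and 0.67 for *Ptp61F*. Without mutant replicate 1, 2 of the 13 were called higher, against 3.68% of all. Without mutant replicate 3, limma called 0 of the 13 at an adjusted p under 0.05 and 4 at an unadjusted p under 0.05, while 3.53% of all probe sets were called higher. Leaving out either of these mutant arrays lowered the number of calls over the whole array as well.

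**Figure D4:**
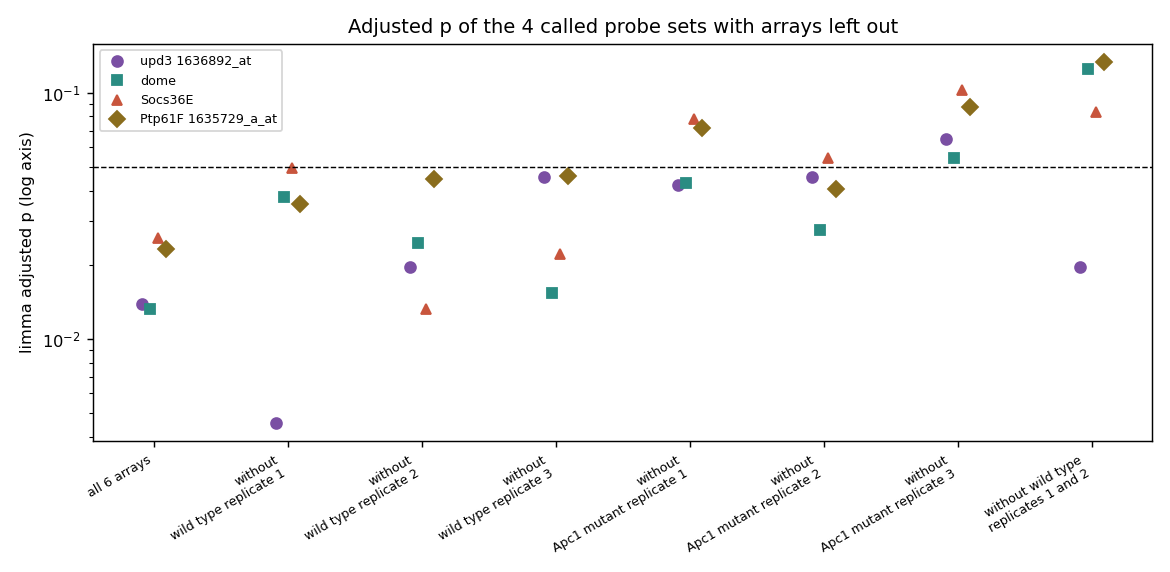
Adjusted p from limma (vertical axis, log scale) of the 4 called Jak/Stat probe sets with all 6 arrays, with each array left out in turn, and with wild type replicates 1 and 2 left out together, with a dashed line at 0.05. All 4 points lie above the line without mutant replicate 3, and only *upd3* lies below it when the 2 wild type arrays are left out together.

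Some ovary transcripts stood out on wild type arrays. *nos*, a germline gene, read 3.75, 5.52 and 1.69 in wild type and 1.25, 1.01 and 1.25 in mutants, and *osk*, which organizes the posterior pole of the egg, read 3.24, 6.33 and 1.36 against 2.07, 2.17 and 1.72 (probe set 1639953_at). These were highest in wild type replicate 2 and next highest in replicate 1. Of the other *osk* probe sets, 1631153_at kept this order in wild type (3.27, 5.99 and 1.45), while 1640576_a_at was highest in replicate 1 (2.35, 2.24 and 1.11). Other genes of the ovary list set only replicate 2 apart, such as the eggshell gene *Vm26Aa* (2.66, 5.08 and 2.55 in wild type) and the yolk gene *Yp1* (9.47, 11.01 and 9.97), and *vas* (1.29, 1.22 and 1.07) and *Cp36* (2.43, 2.22 and 2.46) set neither apart. Wild type replicates 1 and 2 were therefore also left out together, a choice made after these values were seen. With both left out, so that the single wild type array is assumed to vary like the mutant arrays, 1 of the 13 Jak/Stat probe sets was called higher, against 2.54% of all probe sets. *upd3* kept its call (1.30, adjusted p = 0.0195), and *Socs36E* (0.99, adjusted p = 0.0833), *dome* (0.82, adjusted p = 0.125) and *Ptp61F* (0.70, adjusted p = 0.133) lost theirs. The part of ovary RNA in these differences was not tested, since with a single wild type array a lost call does not measure it.

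Of 13 probe sets of 11 further regulators of the pathway, 0 were called higher, against 6.82% of all probe sets, and 1 lower, against 4.22%. At an unadjusted p under 0.05 by limma, 3 were higher, against 14.6% of all probe sets. At the same threshold 2 were lower, against 1955 of all 18769. The genotypes were apart in 5 with mutants higher, against 17.2% of all probe sets. They were apart in 2 with mutants lower, which was not counted over all probe sets. The median difference over these opposite directions was 0.04, against -0.02 over all probe sets. The called gene was *ken*, which encodes a repressor of a subset of Stat92E targets. It read 5.15, 5.19 and 5.64 in wild type and 4.60, 4.82 and 4.69 in mutants, a fall of 0.63 on the log2 scale with an SE of 0.16 and an adjusted p of 0.0458. It was not called when the arrays were centred on their medians, nor without wild type replicate 1 or 3 or any one of the mutant replicates. The 3 others with the brightest probe sets were not called. *Rab5*, a regulator of endocytosis, differed by 0.13 (adjusted p = 0.531), the SUMO gene *smt3* by 0.32 (adjusted p = 0.133), and *mask*, a positive regulator of the pathway, by -0.03 (adjusted p = 0.894; probe set 1641226_a_at). For *Su(var)2-10*, the fly PIAS gene, whose product inhibits Stat92E, the differences were 0.51 (adjusted p = 0.0794) and 0.11 (adjusted p = 0.56) in its 2 probe sets, and for *Socs44A*, of the same family as *Socs36E*, 0.35 (adjusted p = 0.129). For *Stam*, which sorts receptors in endosomes, the difference was -0.50 (adjusted p = 0.179).

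Of genes known to respond to Jak/Stat signaling in flies, 11 were measured, by 13 probe sets. Of these, 8 were called higher, against 6.82% of all probe sets, and 0 lower, against 4.22%. The median difference was 1.5, against -0.02 over all probe sets. *chinmo*, a Stat92E-responsive gene needed for stem cell maintenance in the testis, read 4.69, 4.46 and 5.14 in wild type and 6.73, 6.51 and 6.96 in mutants (probe set 1629484_s_at), a rise of 1.97 ± 0.20 (SE) with an adjusted p of 0.00105. A second *chinmo* probe set, 1628005_at, rose by 2.25 (adjusted p = 0.00938), while the remaining one differed by -0.10 (adjusted p = 0.648). The stress gene *TotA* read 2.07, 3.49 and 3.37 in wild type and 7.73, 6.14 and 8.45 in mutants, a rise of 4.46 ± 0.61 (SE) with an adjusted p of 0.00394. Its relatives *TotC* and *TotM* rose by 4.52 (adjusted p = 0.000265) and 3.65 (adjusted p = 0.00282).

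*Tep2*, which encodes a thioester-containing immune protein, read 2.57, 3.38 and 3.25 in wild type and 5.54, 6.13 and 5.88 in mutants, a rise of 2.78 ± 0.24 (SE) with an adjusted p of 0.000508. The virus-induced gene *vir-1* rose by 1.01 (adjusted p = 0.0382) and *Drsl3*, of the Drosomycin family, by 1.45 (adjusted p = 0.00593). *TotC* (1.80, 1.53 and 1.86) and *Drsl3* (1.37, 1.34 and 1.23) were at the dim end of the arrays in wild type, where a level cannot be told from background, so the size of their rise is uncertain. Among the 13, the genotypes were apart in 9 with mutants higher, the 8 called ones included, against 17.2% of all probe sets. Not called were *TotX* (1.5, adjusted p = 0.127), *Diedel* (0.75, adjusted p = 0.159), *slbo* (0.31, adjusted p = 0.368) and *Tep1* (0.16, adjusted p = 0.648). Several of these genes also answer to other stress and immune pathways. With wild type replicates 1 and 2 left out, which leaves a single wild type array, fewer of the 13 were called, as over all probe sets.

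Of 75 probe sets of cell type markers, 12 were called higher and 4 lower, against 6.82% and 4.22% of all probe sets. Of 11 progenitor probe sets, 4 were called higher and 0 lower. These were of the progenitor gene *esg* (1.10, adjusted p = 0.000658), the stem cell ligand *Dl* (1.39, adjusted p = 0.0146, and 0.68, adjusted p = 0.00843) and *mira*, a gene of asymmetric division (1.49, adjusted p = 0.00134). Not called by limma were *N* (0.55, adjusted p = 0.0995), *hdc* (0.30, adjusted p = 0.468) and *Sox21a* (0.17, adjusted p = 0.465). Nor were *Su(H)* (0.25, adjusted p = 0.437, and 0.16, adjusted p = 0.65) and *klu* (0.34, adjusted p = 0.098, and -0.10, adjusted p = 0.689). The summed linear level of all 11 progenitor probe sets was 145 to 162 on the wild type arrays and 248 to 260 on the mutant arrays. Of 10 enteroendocrine probe sets, 7 were called higher and 1 lower, with sums of 1240 to 1400 and 2220 to 2740. The fate gene *pros* rose by 1.32. The peptide hormone genes *Dh31*, *CCHa1*, *AstA*, *AstC*, *Tk* and *Mip* rose by 1.76, 1.69, 1.17, 1.11, 0.99 and 0.55 in that order. *NPF* fell by 1.78 on the log2 scale. *CCHa2* (-0.72, adjusted p = 0.084) and *Orcokinin* (0.16, adjusted p = 0.787) were not called by limma. For *CCHa2*, every mutant array was below the wild type arrays. Of 10 enterocyte probe sets, 0 were called higher and 2 lower, those of *alphaTry* (-0.53, adjusted p = 0.0297) and *betaTry* (-2.04, adjusted p = 6.75e-05), with sums of 17200 to 20400 and 14700 to 16000. The enterocyte list went both ways. Against 17.2% of all probe sets, every mutant array was above the wild type arrays in 4 of its 10, none of them called. These were the fate gene *nub* (0.53, adjusted p = 0.0854, and 0.40, adjusted p = 0.167), *Myo31DF* (0.47, adjusted p = 0.0645) and *Amy-p* (0.55, adjusted p = 0.124). The abundant digestive genes mark the tissue as midgut on all 6 arrays.

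Among 8 haemocyte probe sets only *Hml*, which encodes a clotting protein of these blood cells, was called (2.46, adjusted p = 0.00623), and the summed level was 36.3 to 46.8 in wild type and 53.7 to 70.9 in mutants. Without *Hml* the sums of the other 7 were 33.3, 34.2 and 38.1 in wild type and 31.9, 31.8 and 28.4 in mutants, so the higher sum came from *Hml* alone. *Pxn*, a peroxidase of haemocytes, differed by -0.74 (adjusted p = 0.0943) in its probe set 1640097_at, with the genotypes apart, and *He* lay between 0.76 and 1.22 on all arrays. Of 9 visceral muscle probe sets, 0 were called higher and 1 lower (*Mlc2*, -0.96, adjusted p = 0.00515), with sums of 6120 to 7540 and 6130 to 7390. Of the 27 trachea, hindgut, fat body, ovary and dividing-cell probe sets, limma called 0, and 3, all of ovary genes, had an unadjusted p under 0.05. The ovary sums were 759, 2300 and 1030 in wild type and 559, 91.8 and 602 in mutants. The yolk gene *Yp1* was by far the brightest of this list (9.47, 11.01 and 9.97 in wild type, 9.06, 6.11 and 9.18 in mutants). The sums therefore mainly follow *Yp1*, and their order in wild type differs from that of *nos*. The fat body sums were 95.8, 603 and 236 in wild type and 158, 61.9 and 232 in mutants. Within each genotype they had the order of *Yp1*, so the ovary sums cannot be tied to ovary RNA alone. The sums of the 6 dividing-cell probe sets were 155, 300 and 35.2 in wild type and 79.2, 80.3 and 98.3 in mutants. In wild type they had the order of *nos*, highest in replicate 2 and lowest in replicate 3. With wild type arrays spread so widely, the lack of calls cannot show that these genes were unchanged. The part of progenitor, enteroendocrine, haemocyte and fat body RNA in the Jak/Stat differences was not tested.

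**Figure D5:**
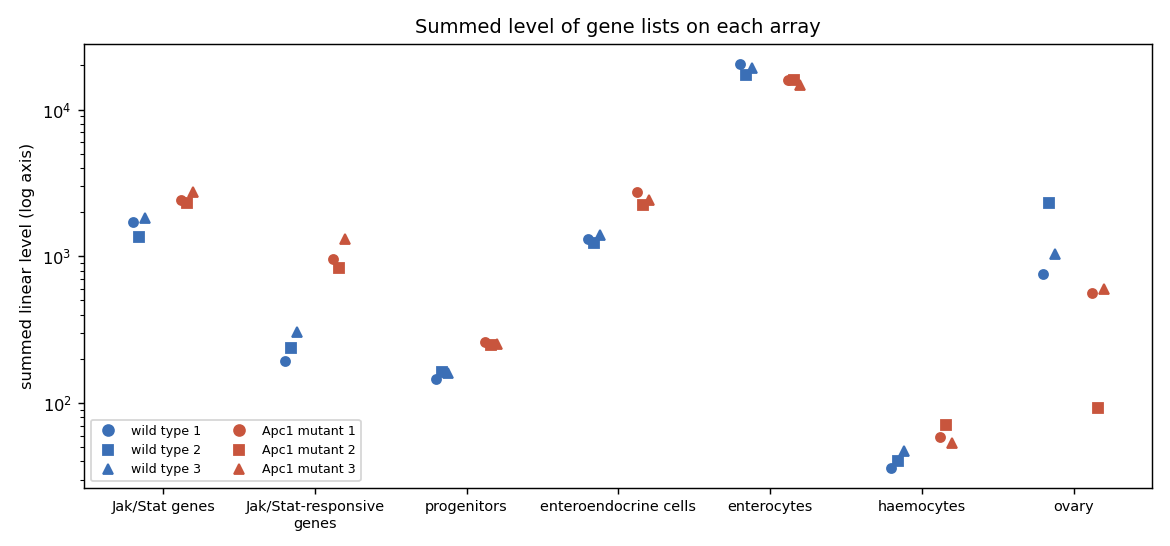
Sum of the linear signals of each gene list (vertical axis, log scale) on each array, with wild type in blue and *Apc1* mutants in red. The Jak/Stat-responsive sums lie between 192 and 306 for wild type and between 838 and 1320 for mutants. The ovary sums, which mainly follow the yolk gene *Yp1*, lie between 759 and 2300 for wild type and between 91.8 and 602 for mutants. Within each genotype they have the order of the fat body sums, which are not drawn.

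Over the whole array, correlations between arrays of the same genotype were 0.983 to 0.992 and between genotypes 0.954 to 0.964, and array medians lay between 2.54 and 2.6. *Apc*, the mutated gene, read 6.55, 5.89 and 6.63 in wild type and 6.41, 6.13 and 6.94 in mutants (difference 0.14, adjusted p = 0.795). Since a null allele need not lower the transcript, this did not check the labels.

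As a description over the 6 arrays, *Socs36E* ran most closely with *Sf3b1* (Pearson r = 0.998), *Rab14* (r = 0.997) and CG10383 (r = 0.997), among 7987 probe sets above the array medians. Of these, CG10383 differed most between genotypes, by 1.82, and like *Socs36E* it was lowest in wild type replicate 2 (5.89) and highest in mutant replicate 3 (8.83). The called *upd3* probe set ran most closely with CG6013, *Rop* and CG4393 (r = 0.996 for each). These correlations share the step between genotypes and the 6 arrays.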

How the data were processed

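Total RNA of pooled whole midguts, 3 samples per genotype, was hybridized to Affymetrix Drosophila Genome 2.0 arrays. The authors deposited log2 values made by RMA, 1 per probe set and array. MAS5 is also listed in the submitters' processing notes, and software versions and background correction were not given in the sources used here. RMA normalizes arrays jointly, so a difference is relative to the other probe sets. The deposited columns of ratios and p-values were not used. Of 18952 probe sets, 183 controls were left out. Probe sets were named by transcript accession through RefSeq (14363), by symbol (311) or as deposited (118), 298 match several genes and 3977 none.

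Genotypes were compared per probe set with limma 3.58.1 in R 4.3.3 (lmFit, eBayes), tested on simulated data. Sums and figures were made in Python 3.11.15. All probe sets of the 10 genes were described, and of other lists every called gene. The uncalled genes of those lists were described in full, in part or not at all, depending on the list. Members and lists were chosen with earlier results of these data known. Whether samples came from separate batches of flies is not stated, so p-values measure the spread between these pools, and the number of arrays limits the precision. Alternatives were normalization, filters, array weights, a replicate block, other thresholds and left-out arrays.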

Additional observations from a re-analysis of the deposited data

How the results depend on the processing

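The limits are 3 arrays per genotype, dim *upd1*, *upd2* and *et* probe sets, and germline transcripts (*nos*, *osk*) on a pair of wild type arrays. The 4 Jak/Stat calls became 2 (of 11 entries) with probe sets averaged per gene, 0 at an adjusted p under 0.01 (limma, with 5 at an unadjusted p under 0.05), 0 to 4 with each array left out, and 1 without wild type replicates 1 and 2, a setting added after seeing the data. Centring, quantile normalization, trend and robust fitting and array weights gave 4. Over all probe sets, 2072 were called. That count was 4691 at an unadjusted p under 0.05, 942 with a change over 2-fold, 864 at an adjusted p under 0.01, 917 without both wild type arrays, and 1085 to 1736 with each array left out. Of the other pathway genes, the 1 call became 0 by centring, by the 2-fold rule and at an adjusted p under 0.01. The count was 5 at an unadjusted p under 0.05 (limma) and 0 to 1 with arrays left out. Without mutant replicate 3 the 1 call was a rise, in a gene other than *ken*. For the responsive genes, 8 became 4 with means under 5 left out (only 4 were then tested) and 4 without both wild type arrays, and 7 to 9 with each array left out. The 16 marker calls became 29 at an unadjusted p under 0.05. The sign turned for *upd1* 1638626_a_at (-0.05 without wild type replicate 3 or mutant replicate 3, and up to 0.10 with other arrays left out), *upd1* 1633968_at (0.02 under quantile normalization and without wild type replicate 3, and down to -0.13 with other arrays left out) and *upd2* (0.06 under quantile normalization, and between -0.16 and 0.07 with arrays left out). Where no construction of the setting shows it, the cause was not tested. Whether same-numbered arrays were handled together is not stated. Over all probe sets their deviations from the group means correlated at 0.129, 0.197 and 0.0248. Differently numbered arrays were not compared, so these values cannot decide it. With the replicate block, 4 Jak/Stat probe sets were called (adjusted p = 0.0211 for *upd3*, 0.00546 for *dome*, 0.00878 for *Socs36E* and 0.0174 for *Ptp61F*), and the pathway call became 0 (limma, with 3 at an unadjusted p under 0.05).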
